A study of Mus musculus with 16 samples.

Results

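The carboxylesterases are serine hydrolases that cleave ester bonds in lipids, drugs and other compounds. In the mouse they are encoded by a family of genes that arose by tandem duplication, and the liver is a main site of their expression. Most family members carry a carboxy-terminal retention signal and stay in the lumen of the endoplasmic reticulum, where several of them hydrolyse triacylglycerol or activate and clear drugs.

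The family was followed here through 10 genes (Ces1b, Ces1c, Ces1d, Ces1e, Ces1f, Ces1g, Ces2a, Ces2c, Ces2e and Ces3a) of the 22322 genes in the deposited tables. They were chosen by a measured value, since the family was picked because Ces2e was strongly lower in halofuginone liver. The liver comparison of the members is therefore given as a description, without p-values. Whether edgeR called a member there is part of that description and is not used as a test. Tests are given for fat and for liver against fat in vehicle samples. Another 9 carboxylesterase genes were present in the tables, and all 10 members passed the filter on low counts in liver but only 2 of them (Ces1d and Ces1f) passed it in fat.

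Poly(A)-selected RNA was sequenced from liver and white adipose tissue of mice that the series title calls DIO. The vehicle groups are labelled HFD (5 liver and 3 fat libraries), and the halofuginone groups are labelled H100 (5 liver and 3 fat libraries). Treated animals received halofuginone at 100 µg/kg by intraperitoneal injection every 2 days, controls received vehicle on that schedule, and tissue was taken at 8 weeks. Halofuginone inhibits prolyl-tRNA synthetase and thereby sets off the amino acid starvation response. The labels give no strain, age, sex or fat depot and do not say whether libraries came from separate animals, so the p-values measure the spread between these libraries.

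Library totals were 20309956 to 31980683 counts in liver and 17070614 to 21387799 in fat. Halofuginone liver 1 stood apart from the other treated livers. On the first principal component of liver expression (56.2% of the variance) it scored −23.3, beside −36.0 to −28.3 in vehicle and 32.4 to 58.0 in halofuginone livers 2 to 5. Asns, a target of the amino acid starvation response, was at 6.71 CPM (read counts scaled to a common library size, with TMM factors within a tissue) in that library, against 0.317 to 1.35 in vehicle and 55.5 to 127 in livers 2 to 5. Liver fold changes and list counts are therefore given with and without it. In fat, vehicle library 3 stood apart. All 8 hepatocyte markers had counts in each of the 10 livers, and all 8 adipocyte markers passed the filter on low counts in fat.

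The members lie in 2 clusters on chromosome 8. In RefSeq order the first cluster runs Ces1a, Ces1b, Ces1c, Ces1d, Ces1e, Ces1f, Ces1g, Ces1h, Ces5a. The second runs Ces2a, Ces2b, Ces2c, the pseudogene Ces2d-ps, Ces2e, Ces2f, Ces2g, Ces2h, Ces3a, Ces3b, Ces4a. Promoter sequences (300 bases, from 250 before the annotated start) were taken from RefSeq, build GRCm38.p6, which matched 7 of the 10 members. Ces1d, Ces1f and Ces3a were not matched. The authors' build was mm39, so these coordinates belong to the RefSeq build only.

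The promoters of Ces1b and Ces1c are shown because these neighbours had the closest promoters in the family and, as described further on, small differences in liver. Over 273 aligned bases 253 were identical (92.7%). Capitals mark the longest run the pair shares, 58 bases that begin at −173 in Ces1b and −184 in Ces1c relative to the start. Of 32851 promoters, 3 held that run, those of Ces1c and of 2 annotated starts of Ces1b. Each sequence reads 5′ to 3′ on the strand of its gene.
Ces1b, chr8:93079891-93080190, minus strand: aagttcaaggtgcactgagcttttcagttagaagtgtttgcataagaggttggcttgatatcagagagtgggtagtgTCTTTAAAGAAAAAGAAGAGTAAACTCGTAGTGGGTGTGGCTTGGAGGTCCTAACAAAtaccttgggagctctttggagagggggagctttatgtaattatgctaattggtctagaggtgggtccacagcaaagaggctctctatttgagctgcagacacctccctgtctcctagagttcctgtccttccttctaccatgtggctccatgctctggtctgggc
Ces1c, chr8:93131234-93131533, minus strand: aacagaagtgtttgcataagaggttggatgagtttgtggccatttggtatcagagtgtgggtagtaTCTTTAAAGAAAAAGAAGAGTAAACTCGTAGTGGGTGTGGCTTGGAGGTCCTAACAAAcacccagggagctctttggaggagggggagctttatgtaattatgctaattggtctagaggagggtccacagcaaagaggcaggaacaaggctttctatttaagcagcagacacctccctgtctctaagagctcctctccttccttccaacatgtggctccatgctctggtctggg

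The promoters of Ces2e and Ces2a are shown because Ces2e was the gene the family was picked for and Ces2a is the first gene of the same cluster. Over their aligned bases 69.1% were identical, which is no more than that of some pairs from different clusters (70.2% for Ces1h and Ces4a). Capitals mark the longest run the pair shares, 17 bases that begin at −183 in Ces2e and −205 in Ces2a. Among 32851 promoters of this length, 2 held that run, which were those of Ces2a and Ces2e. The runs were picked after the sequences had been compared and carry no test.
Ces2e, chr8:104926010-104926309, plus strand: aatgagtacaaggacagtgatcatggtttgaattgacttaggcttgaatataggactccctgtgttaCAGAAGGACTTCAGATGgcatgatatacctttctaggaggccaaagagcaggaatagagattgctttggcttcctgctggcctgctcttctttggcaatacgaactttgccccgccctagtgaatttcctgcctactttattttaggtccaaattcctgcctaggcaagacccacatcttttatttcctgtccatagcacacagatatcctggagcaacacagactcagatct
Ces2a, chr8:104733753-104734052, plus strand: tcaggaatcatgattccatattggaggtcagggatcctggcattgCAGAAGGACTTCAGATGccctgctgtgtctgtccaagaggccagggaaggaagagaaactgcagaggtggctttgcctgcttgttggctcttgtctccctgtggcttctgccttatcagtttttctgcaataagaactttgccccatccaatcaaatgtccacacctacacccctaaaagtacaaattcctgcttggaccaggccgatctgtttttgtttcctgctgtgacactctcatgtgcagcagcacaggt

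The promoter of Ces1g is shown because it holds a TATA box match, marked in capitals.
Ces1g, chr8:93337160-93337459, minus strand: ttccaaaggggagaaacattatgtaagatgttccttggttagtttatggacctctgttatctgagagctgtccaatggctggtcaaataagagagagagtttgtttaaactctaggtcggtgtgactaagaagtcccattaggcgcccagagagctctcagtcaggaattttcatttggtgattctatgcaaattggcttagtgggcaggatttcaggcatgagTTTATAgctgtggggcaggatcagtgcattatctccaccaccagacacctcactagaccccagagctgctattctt

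Motifs were searched on both strands, and no matches overlapped in the members. TATAAA was found in 1 of the 7 matched members (Ces1g, at −26, on the opposite strand) and in 13.6% of all promoters. The nuclear receptor core element AGGTCA was found in 1 of 7 (Ces2a, at −226) and in 16.3% of all promoters. No member held the HNF1 core element GTTAAT (7.10% of all promoters), the short HNF4 element CAAAGTCCA (0.475%) or the antioxidant response element core TGACNNNGC (12.4%). None held the composite element TGATGNAA of ATF4 and C/EBP (3.97%) or the C/EBP element TTGCGCAA (0.183%). These counts say only which letters stand in these windows.

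In vehicle liver the members spanned a wide range of levels. Between genes levels were compared in the authors' FPKM, which accounts for gene length. Ces1c, the esterase that is secreted into mouse plasma, was highest at 1236 ± 148 FPKM (SD, n = 5), followed by Ces3a at 633 ± 92.9. Ces1d, a triacylglycerol hydrolase of the endoplasmic reticulum that mobilises stored lipid for lipoprotein assembly, was at 218 ± 50.3, and Ces1f at 185 ± 26.7. Their ranges overlapped (151 to 276 and 146 to 208), so the order of that pair is within the spread.

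Another 4 members had neighbouring and overlapping ranges. Ces2e was at 72.5 ± 5.96 FPKM, Ces1g at 66.3 ± 8.21, Ces1e at 63.8 ± 8.09 and Ces2a at 51.4 ± 3.52 (SD, n = 5 each). Ces1b (25.4 ± 4.72) and Ces2c (7.15 ± 2.40) were lowest, and each of these lay below the range of the gene above it. In the summed FPKM of the 10 members, Ces1c made up 42.4% to 53.3% across the vehicle livers.

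**Figure D1:**
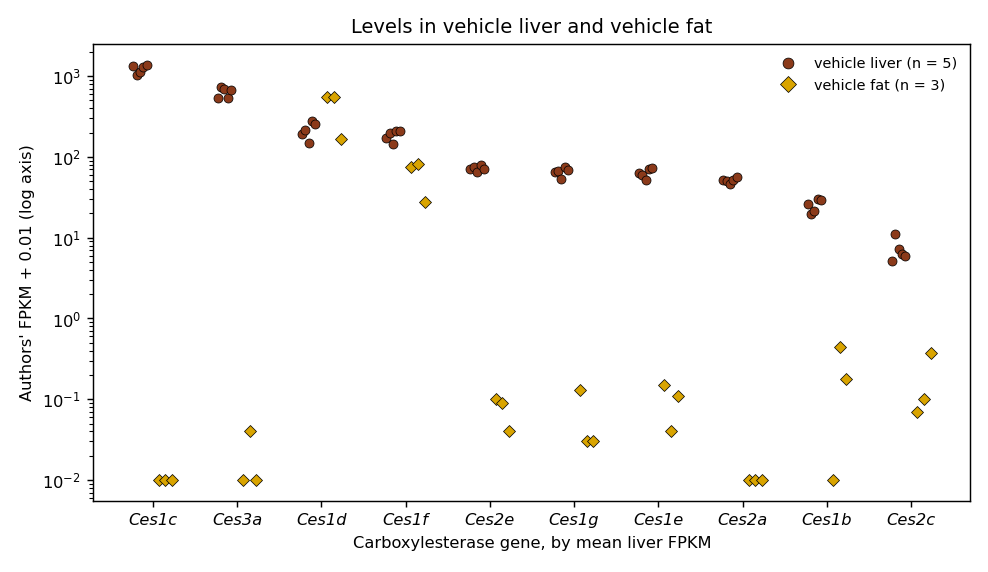
Levels of the 10 members in vehicle liver (circles, 5 libraries) and vehicle fat (diamonds, 3 libraries), as the authors' FPKM plus 0.01 on a log axis, ordered by mean liver FPKM. Ces1d and Ces1f are the members whose fat libraries are all at 27.7 FPKM or more, and Ces1c and Ces2a are listed at 0 in all 3 fat libraries.

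In the halofuginone livers all 10 members had a fitted log2 fold change below 0, and 3 of 10 (Ces1e, Ces1g and Ces2e) were called lower by edgeR at an adjusted p under 0.05, where 10.5% of the 12311 genes tested were called lower and 12.7% higher. No member was called higher. Without halofuginone liver 1, 9 of 10 were called lower, the exception being Ces2c, against a background of 21.6% lower and 21.2% higher. Because this contrast chose the family, nothing is read from these counts. The median log2 fold change of the members was −1.42 with all libraries and −1.51 without halofuginone liver 1, and that of all genes tested was 0.02 and −0.02. In bulk tissue, fewer cells of a type and less RNA per cell cannot be told apart.

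Ces2e (ENSMUSG00000031886), an esterase of liver and intestine, had 152, 166, 141, 165 and 152 CPM in vehicle livers 1 to 5. The halofuginone livers had 70.4, 36.5, 42.3, 57.7 and 50.9 CPM in the same order of numbering. The groups did not overlap, and halofuginone liver 1 was the highest of the treated libraries and still at 45.4% of the vehicle mean. The log2 fold change was −1.59 (SE 0.16), and −1.75 (SE 0.13) without that library. Its standard error was the smallest among the members in both fits.

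Among the other Ces2 genes, Ces2a (ENSMUSG00000055730), which hydrolyses acylglycerols, ran from 81.8 to 101 CPM in vehicle liver. Halofuginone livers 1 to 5 had 96.0, 48.1, 37.2, 86.7 and 51.5 CPM. Liver 1 and liver 4 thus lay inside the vehicle range and the other 3 below it. The log2 fold change was −0.51 (SE 0.23, not called), and −0.73 (SE 0.20, called) without halofuginone liver 1. Ces2c (ENSMUSG00000061825), another hydrolase of liver and intestine, had 10.5 to 24.0 CPM in vehicle and 5.36, 1.42, 11.1, 3.67 and 9.83 CPM in halofuginone livers 1 to 5. Halofuginone liver 3 lay inside the vehicle range and the other 4 below it. The log2 fold change of −1.25 (SE 0.44) was not called, nor was that without halofuginone liver 1 (−1.21, SE 0.48). DESeq2 called it lower.

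The Ces1 genes fell into neighbours with small and with large differences along the chromosome. Ces1b (ENSMUSG00000078964) ran from 41.6 to 60.2 CPM in vehicle and was at 66.4, 31.5, 31.8, 53.5 and 29.1 CPM in halofuginone livers 1 to 5. Ces1c (ENSMUSG00000057400) had 2083 to 2653 CPM in vehicle and 2620.2, 1254, 1108, 1914 and 1340.2 CPM in the treated livers. For both, halofuginone liver 1 was the highest treated library. It lay above the vehicle range for Ces1b and inside it for Ces1c. The log2 fold changes were −0.31 (SE 0.23) and −0.53 (SE 0.23), neither called, and −0.55 (SE 0.19) and −0.78 (SE 0.18), both called, without halofuginone liver 1.

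The next 4 genes along the cluster, Ces1d to Ces1g, had much lower levels in halofuginone livers 2 to 5. Ces1d (ENSMUSG00000056973) had 403, 469.5, 327, 556 and 539 CPM in vehicle livers 1 to 5, and 440.9, 11.1, 17.9, 41.0 and 25.1 CPM in the halofuginone livers. Liver 1 was thus inside the vehicle range at 96.1% of the vehicle mean, and the other 4 averaged 5.18% of it. The fitted log2 fold change was −2.10 (SE 0.90, not called), and −4.29 (SE 0.37, called) without that library. Ces1d was the member whose value turned most on 1 library.

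Ces1e (ENSMUSG00000061959), known as egasyn because it holds beta-glucuronidase in the endoplasmic reticulum, had 133, 131, 114, 143 and 151 CPM in vehicle. The halofuginone livers had 99.5, 14.1, 17.9, 42.4 and 22.8 CPM, all below the vehicle range. Its log2 fold change was −1.78 (SE 0.46), and −2.49 (SE 0.28) without halofuginone liver 1. The call of Ces1e was lost without halofuginone liver 3 or halofuginone liver 5. Gusb, the gene of beta-glucuronidase, was also lower in treated liver (log2 fold change −0.51, SE 0.13, edgeR adjusted p = 0.0219). Without halofuginone liver 1 it was −0.65 (edgeR adjusted p = 0.000862). The call was lost without vehicle liver 4 or halofuginone liver 3 or 5 (edgeR adjusted p from 0.0518 to 0.0626), and by limma on log2(FPKM + 1) and log2(FPKM + 0.1) (adjusted p = 0.0531 and 0.0524). Gusb came from a list of luminal retention partners, of which 5 were tested, 1 fell and 0 rose, against 10.5% and 12.7% of all genes. Kdelr1 (0.35), Kdelr2 (0.33) and P4hb (0.22) stood above 0 and Pdia3 (−0.20) below. Without halofuginone liver 1, 1 fell and 2 rose, against 21.6% and 21.2%.

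Ces1g (ENSMUSG00000057074), the mouse gene often compared with human CES1, had 163, 174, 139, 183 and 174 CPM in vehicle and 94.3, 15.1, 10.8, 29.9 and 13.9 CPM in the halofuginone livers. The groups did not overlap. The log2 fold change of −2.35 (SE 0.54) was the largest in size among the members with all libraries, and it was −3.28 (SE 0.27) without halofuginone liver 1. Ces1f (ENSMUSG00000031725), also a triacylglycerol hydrolase, had 300.1 to 410.2 CPM in vehicle and 316, 5.07, 40.1, 131 and 71.3 CPM in the halofuginone livers. Its spread between treated libraries was the widest of the family on a ratio scale. The log2 fold change was −1.70 (SE 0.72, not called), and −2.59 (SE 0.65, called) without halofuginone liver 1.

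Ces3a (ENSMUSG00000069922), the second most abundant member, had 1129, 1606, 1533, 1095 and 1413 CPM in vehicle and 1609.8, 468, 444, 754 and 624 CPM in the halofuginone livers. Halofuginone liver 1 was just above the highest vehicle library and the other 4 were below the lowest. The log2 fold change was −0.80 (SE 0.33, not called), and −1.26 (SE 0.20, called) without that library.

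**Figure D2:**
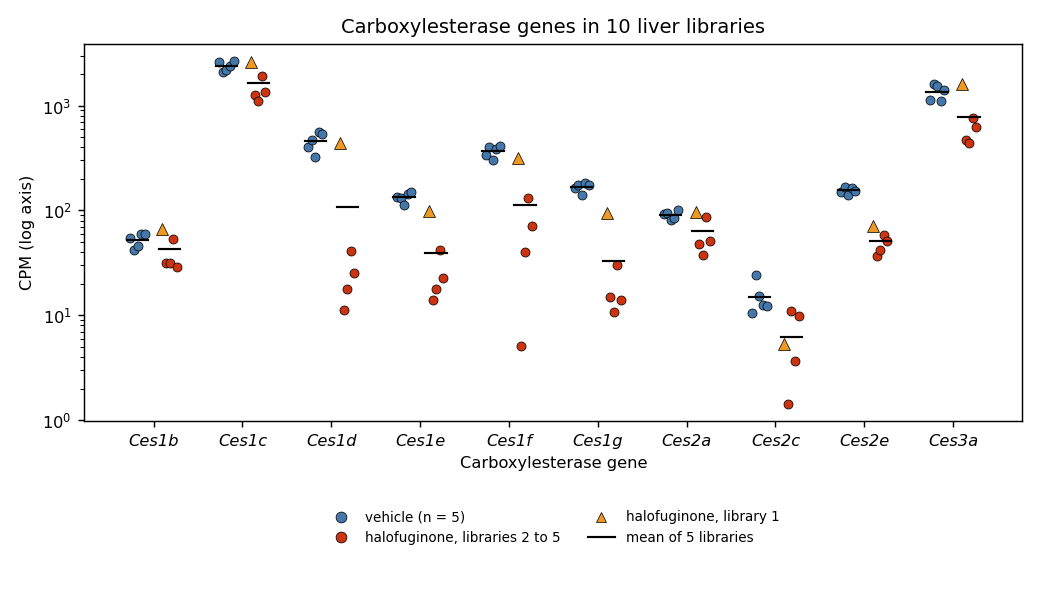
CPM of each member in the 10 liver libraries on a log axis, with vehicle in blue, halofuginone livers 2 to 5 in red, halofuginone liver 1 as an orange triangle and bars at the mean of 5 libraries. All treated libraries lie below all vehicle libraries for Ces1e, Ces1g and Ces2e, and for Ces1d the triangle sits at 440.9 CPM while the red points end at 41.0 CPM.

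By library, all 5 treated livers lay below every vehicle liver for 3 of 10 members (Ces1e, Ces1g and Ces2e), against 6.55% of the genes tested, and livers 2 to 5 did so for 7 of 10, against 16.1%. Halofuginone livers 2 and 5 were below the vehicle range in all 10 members. Liver 3 was below it in 9 members and liver 4 in 8. Liver 4 was the highest of livers 2 to 5 in 9 of the 10 members. Halofuginone liver 1 was below the vehicle range in 4 members, inside it in 4 and above it in 2 (Ces1b and Ces3a). The share of all genes outside the vehicle range in a single library was not computed, so nothing is read from the counts by library.

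The summed FPKM of the 10 members was 2355 to 2819 in vehicle livers, 2808 in halofuginone liver 1 and 1088 to 1643 in halofuginone livers 2 to 5. Ces1c made up 61.8% to 68.4% of that sum in livers 2 to 5. The share of Ces1d was 6.39% to 10.5% in vehicle livers, 7.76% in halofuginone liver 1 and 0.555% to 1.24% in livers 2 to 5. The level of the secreted enzyme's transcript was therefore a larger part of a smaller sum in those 4 livers.

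**Figure D3:**
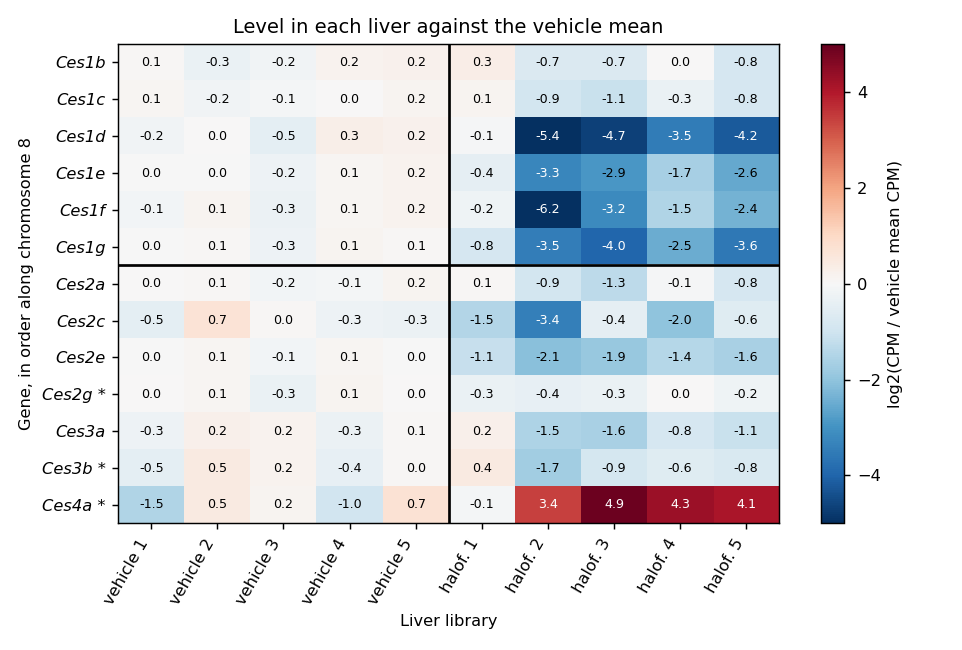
log2 ratio of each liver library to the vehicle mean, in gene order along chromosome 8, with a horizontal line between the clusters and a vertical line between vehicle and halofuginone (halof.). Asterisks mark the 3 carboxylesterase genes outside the member list that passed the filter. Ces1d to Ces1g are the darkest blue block in halofuginone livers 2 to 5, Ces2g is near 0 throughout and Ces4a is red in those 4 livers.

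Of the 9 other carboxylesterase genes in the tables, 3 passed the filter in liver, and they did not move as a group. Ces4a, at the far end of the second cluster, was higher in treated liver, by 3.96 on the log2 scale (SE 0.72, adjusted p = 0.00719 by edgeR), and was called in each of the 18 alternative fits. Its level was 0.871 to 4.06 CPM in vehicle, 2.29 in halofuginone liver 1 and 26.6 to 73.4 in halofuginone livers 2 to 5. Without liver 1 the log2 fold change was 4.24 (SE 0.42, edgeR adjusted p = 3.67e-05). Ces2g ran from 25.1 to 34.7 CPM in vehicle and from 23.7 to 31.8 in treated liver (log2 fold change −0.24, SE 0.11, edgeR adjusted p = 0.125, and −0.24 with an edgeR adjusted p of 0.105 without halofuginone liver 1).

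Ces3b, the neighbour of Ces3a, was at 179.9 to 343 CPM in vehicle and at 337, 74.1, 134, 166 and 146 CPM in halofuginone livers 1 to 5, the same layout as Ces3a. Its log2 fold change was −0.54 (SE 0.34, edgeR adjusted p = 0.261), and −0.96 with an edgeR adjusted p of 0.0113 without halofuginone liver 1. The other 6 genes stayed low in liver, with at most 1.40 CPM in any library (Ces2b in vehicle liver 2), and Ces1h and Ces5a had 0 counts in all 10 livers.

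**Figure D4:**
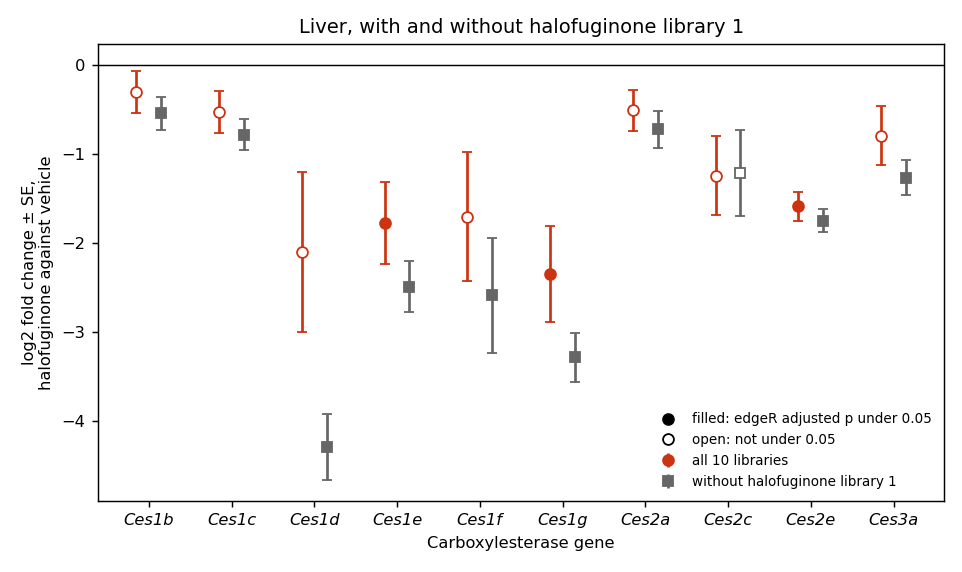
log2 fold change with its standard error in liver, halofuginone against vehicle, with all 10 libraries (circles) and without halofuginone liver 1 (squares), filled where edgeR gave an adjusted p under 0.05. Filled circles are Ces1e, Ces1g and Ces2e, and every square except that of Ces2c is filled. The fills are a description, since this contrast chose the family.

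Reads shared between near-identical copies could move counts between members. Of the 50-base stretches in the GENCODE M21 transcripts of Ces2c, 34.3% also occurred in another carboxylesterase gene, 32.7% in the pseudogene Ces2d-ps, which has no row in the tables. The share was 25.6% for Ces3a, all of it with Ces3b, and 10.8% and 10.2% for Ces1b and Ces1c. It was at most 3.30% for the other 6 members. These shares are not bounds on the error, since the effect of shared reads also turns on the level of the partner gene. In vehicle liver Ces1b averaged 52.4 CPM and Ces1c 2382 CPM, and 8.18% of the Ces1c stretches also occurred in Ces1b. The values of Ces1b therefore cannot be taken as independent of those of Ces1c. How far shared reads moved the values of Ces2c, Ces3a, Ces1b and Ces1c was not tested.

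The genes whose course over the 10 livers was most like that of Ces2e were not carboxylesterases. Likeness was the root mean square difference in log2 CPM from the vehicle mean, over 8745 candidate genes with at least 5 CPM in vehicle. The 5 nearest were Hsd17b10 (0.134), a mitochondrial dehydrogenase, 4931406C07Rik (0.172), Oat (0.173), the ornithine aminotransferase of pericentral hepatocytes, Lhpp (0.227), a phosphatase, and Cyb5r3 (0.244), a cytochrome b5 reductase. Hsd17b10 was at 155 to 212 CPM in vehicle, 100.1 in halofuginone liver 1 and 45.1 to 77.7 in livers 2 to 5. Of the members, Ces3a was nearest to Ces2e at 0.574, with 305 candidates nearer, and Ces1d was farthest at 1.74.

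Other genes of lipid and ester hydrolysis, of transcription and of cell types were read from the same liver fit. Of 20 tested lipid and ester hydrolases outside the family, 7 fell and 0 rose, against 10.5% of all genes called lower, with a median log2 fold change of −0.57. Without halofuginone liver 1, 15 of 20 fell (median −0.78), against 21.6% of all genes. Esd, the esterase D gene, fell by 0.53 on the log2 scale (SE 0.13, edgeR adjusted p = 0.0190), and by 0.64 without halofuginone liver 1. Its call was lost without halofuginone liver 3 (edgeR adjusted p = 0.0556). The monoacylglycerol lipases Abhd6 (−0.69, SE 0.18) and Mgll (−1.07, SE 0.30) and the cholinesterase Bche (−1.28, SE 0.37) were also called, and each of those calls was lost in 3 or more fits without 1 library. Without halofuginone liver 1 they stood at −0.90, −1.42 and −1.91, each called. Without any one of the livers other than halofuginone liver 1, the count of hydrolases called lower was 2 to 4. The number called over all genes also fell in several of those fits, as given further on, so nothing is read from that count.

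Of 12 receptors and transcription factors linked to carboxylesterase transcription, 1 rose and 1 fell, against 12.7% and 10.5% of all genes. Without halofuginone liver 1, 1 rose and 4 fell (Hnf4a, Nr1i3, Cebpa and Nr3c1), against 21.2% and 21.6% of all genes. Without vehicle liver 1 or 2 or halofuginone liver 3 or 5, none of the 12 was called by edgeR. Without vehicle liver 2 or halofuginone liver 3 or 5, fewer of all genes were called as well, as given further on. Atf4, the effector of the amino acid starvation response, rose by 0.77 on the log2 scale (SE 0.20, edgeR adjusted p = 0.0220), and by 0.90 without halofuginone liver 1. Hnf4a, a hepatocyte nuclear receptor, fell by 0.71 (SE 0.20, edgeR adjusted p = 0.0269), and by 0.80 without halofuginone liver 1. Leaving out vehicle liver 1, 2 or 4 or halofuginone liver 3 or 5 ended the call of Atf4 (edgeR adjusted p from 0.0508 to 0.0568). That of Hnf4a was lost without vehicle liver 1, 2 or 3 or halofuginone liver 3 or 5 (edgeR adjusted p from 0.0533 to 0.0689). The constitutive androstane receptor gene Nr1i3 stood at −1.47 on the log2 scale (SE 0.77, adjusted p = 0.178 by edgeR), and at −2.79 (SE 0.56, adjusted p = 0.00243 by edgeR) without halofuginone liver 1. The pregnane X receptor gene Nr1i2 stood at −0.10 (SE 0.20, edgeR adjusted p = 0.741), and at −0.08 (edgeR adjusted p = 0.785) without that library.

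Cell type markers moved with the groups in part, and their counts turned on halofuginone liver 1. Of all genes tested, 10.5% were called lower and 12.7% higher, or 21.6% and 21.2% without halofuginone liver 1. Of 8 hepatocyte markers 1 fell (Ttr) and 1 rose (Tat). Without that library 4 fell (Alb, Ttr, Apoa1 and Apoh) and 2 rose (Fgb and Tat). With all libraries DESeq2 called 4 markers lower and 1 higher, where it called 1728 and 1910 of 22322 genes. The call of Ttr was lost without halofuginone liver 3 or 5 (edgeR adjusted p = 0.0562 and 0.0552). The summed level was 118464 to 137934 CPM in vehicle livers, 112344 in halofuginone liver 1 and 56378 to 108372 in livers 2 to 5. Alb was the largest part of that sum, with means of 94154 CPM in vehicle and 51781 CPM in treated livers. Treated means of Ttr, Apoa1 and Apoh were also lower, and those of Serpina1c, Ahsg, Fgb and Tat were higher.

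Of 8 pericentral hepatocyte markers 4 fell (Glul, Oat, Slc1a2 and Rhbg), against 10.5% of all genes called lower. Without halofuginone liver 1, 6 fell, against 21.6%. Without any one of the other livers the count was 2 or 3. In several of those fits fewer of all genes were called as well, as given further on. The sum was 14000 to 17529 CPM in vehicle, 14687 in liver 1 and 3461 to 9861 in livers 2 to 5. Against the same 10.5% and 21.6% of genes, 1 of 8 periportal markers fell (Aldh1b1), and 2 without halofuginone liver 1 (Aldh1b1 and Cyp2f2). Their sums ran from 4126 to 5862 CPM in vehicle, with 5937 in halofuginone liver 1 and 2905 to 5884 in livers 2 to 5.

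Of 8 macrophage markers 1 fell (Gpnmb), against 10.5% of all genes called lower. Without halofuginone liver 1, 4 fell (Gpnmb, Itgax, Clec4f and Lyz2), against 21.6%. None was called without vehicle liver 2 or halofuginone liver 3 or 5, and in each of those fits fewer of all genes were called. The sum of the 8 markers was 426 to 576 CPM in vehicle, 764 in halofuginone liver 1 and 373 to 490.1 in livers 2 to 5. Of 5 adipocyte markers tested 4 fell (Fabp4, Cfd, Lipe and Pparg), against 10.5% of all genes called lower. Without halofuginone liver 1, 4 fell, against 21.6%. All 8 adipocyte markers together summed to 81.3 to 172 CPM in vehicle and 30.5 to 82.0 in treated liver. Adipoq and Plin1 had 0 or 1 count in each liver and Lep had 0. The part of these shifts in the carboxylesterase values was not tested.

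White adipose tissue held only part of the family. Ces1d and Ces1f were abundant there, and Ces1d made up 85.4% to 93.2% of the members' summed FPKM across the 6 fat libraries. The other 8 members had at most 15 counts in any fat library. Ces1c and Ces2a had 0 counts in all 3 vehicle fat libraries. With the limit that 0 counts allow set at 3 counts per library (0.180 CPM at most), Ces1c was at least 13241-fold and Ces2a at least 506-fold higher in vehicle liver, and these bounds cover counting error only.

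In the test of vehicle liver against vehicle fat, Ces1f was higher in liver by 2.87 on the log2 scale (SE 0.34, edgeR adjusted p = 3.36e-05), in all 5 livers against all 3 fat libraries. Ces1d was not called (0.29, SE 0.36, edgeR adjusted p = 0.475). Its sign turned with the scaling. It was −0.97 on library size alone (edgeR adjusted p = 0.0258) and −0.80 by limma on log2(FPKM + 1) (adjusted p = 0.0767). In the authors' FPKM, Ces1d stood at 425 ± 224 in vehicle fat (SD, n = 3) and 218 ± 50.3 in vehicle liver. The other 8 members were called higher in liver, but they passed the filter through liver alone, so this is a description, and 35.5% of 14051 genes were called higher in liver and 38% higher in fat. Scaling moved this comparison as a whole, since library size alone shifted the median of all genes by −1.26, and that of Ces1f to 1.61.

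In fat, neither tested member was called with halofuginone. Ces1d had 1127, 1105 and 354 CPM in vehicle libraries 1 to 3 and 1004, 614 and 938 CPM in halofuginone libraries 1 to 3. The treated libraries lay between the vehicle extremes, and the fitted log2 difference was −0.02 (SE 0.45, adjusted p = 0.993 by edgeR), and the sign turned to 0.04 on library size alone. Ces1f had 144, 148 and 54.5 CPM in vehicle and 83.9, 42.8 and 87.3 CPM in halofuginone fat. The groups overlapped, and the log2 difference was −0.70 (SE 0.44, adjusted p = 0.545 by edgeR).

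Vehicle fat 3 was the lowest vehicle library for both genes. In it the adipocyte markers summed to 12031 CPM, against 20172 to 24652 in the other 5 fat libraries, and the macrophage markers to 16736 CPM, against 5557 to 8486. The epididymis markers summed to 87.3 CPM there and to 0.540 to 13.0 elsewhere. Crisp1 was most of that sum at 63.6 CPM, with Adam7 at 12.5 CPM. Ces5a, a carboxylesterase of the epididymis, was at 11.0 CPM against 0 to 0.210. The listed markers Lcn5, Lcn8, Defb29 and Spag11b were at 0 to 0.173 CPM there. Lcn8 (4.81 CPM) and Spag11b (2.43 CPM) were highest in halofuginone fat 1. Without vehicle fat 3 the log2 fold changes were −0.39 for Ces1d and −1.03 for Ces1f (edgeR adjusted p = 0.548 and 0.300). The 8 hepatocyte markers summed to only 3.88 to 9.26 CPM across the fat libraries.

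**Figure D5:**
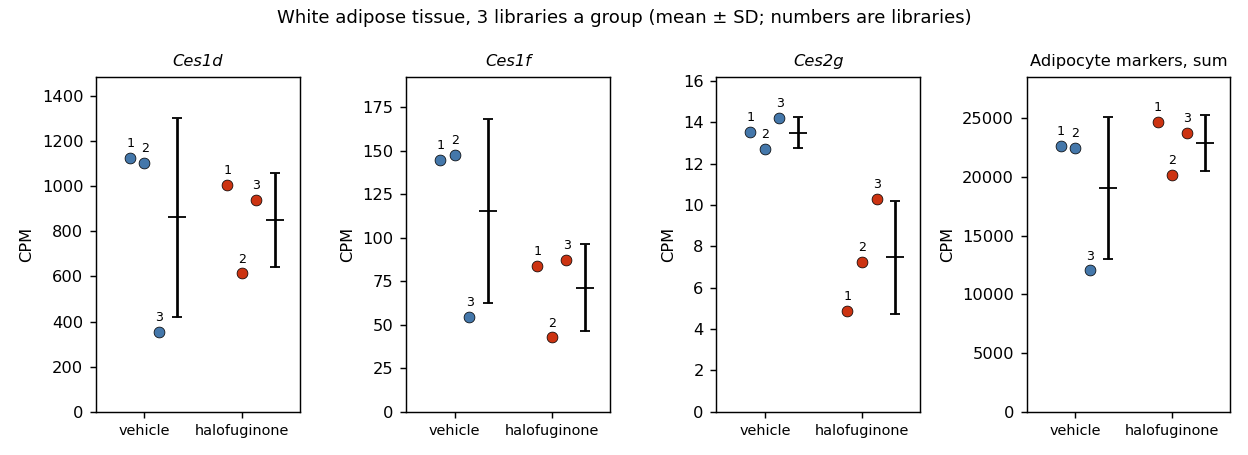
CPM of Ces1d, Ces1f and Ces2g and the summed CPM of 8 adipocyte markers in each fat library (points, numbered by library), with the mean and SD of 3 libraries beside them. Vehicle library 3 is the lowest vehicle point for Ces1d (354), Ces1f (54.5) and the adipocyte markers (12031), and for Ces2g the 3 treated points lie below the 3 vehicle points.

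These were the values in a comparison in which edgeR called 0% of the 14030 genes tested in fat (0 genes, with 1881 at an unadjusted p under 0.05 and 665 called by DESeq2, neither member among them). Ces2g was the other carboxylesterase gene tested in fat, at 12.7 to 14.2 CPM in vehicle and 4.87 to 10.3 CPM in halofuginone fat. Its groups did not overlap, and its log2 fold change of −0.85 (SE 0.29) had an edgeR adjusted p of 0.300. The share of all genes tested in fat whose groups did not overlap was not computed.

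The change in fat minus that in liver was 2.08 (SE 1.27) for Ces1d and 1.00 (SE 1.05) for Ces1f on the log2 scale. Neither was called, where 0.949% of 14853 genes were. Without halofuginone liver 1 the difference was 4.23 (SE 0.61, called) for Ces1d and 1.85 (SE 0.91, not called) for Ces1f. The 0.949% belongs to the fit with all libraries and is not the share for the fit without halofuginone liver 1. The number of genes called here changed when single libraries were left out, as given further on. This contrast contains the liver comparison that chose the family, so it too is a description. In these libraries Ces1d averaged 5.18% of its vehicle mean in halofuginone livers 2 to 5, while in fat the treated mean was 852 ± 209 CPM and the vehicle mean 862 ± 440 CPM (SD, n = 3 each).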

How the data were processed

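Poly(A) RNA-seq tables of 10 liver and 6 fat libraries were used, 1 per tissue, with 22322 gene identifiers, 22267 of them named through a table of gene names. Per the file headers, the authors deposited a count and an FPKM column for each library. Per the submitters' processing notes, fastp 0.18.0, Bowtie2 2.2.8, HISAT2, StringTie 1.3.1, RSEM and build mm39 were used. The counts may be rounded estimates, since in each library 1 to 31 genes with no counts carried a positive FPKM. Strand, annotation and duplicate handling are not given in the sources used here.

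Groups came from the sample titles. Each tissue was fitted on all genes with edgeR 4.0.16 under R 4.3.3, using its quasi-likelihood test (glmQLFit and glmQLFTest, two-sided) after filterByExpr and TMM normalization, with Benjamini-Hochberg adjustment, and calls were made at an adjusted p under 0.05. The standard error is the size of the log2 fold change divided by the root of the F statistic. Vehicle liver was tested against vehicle fat, and the drug effects of both tissues against each other, in fits over both tables. CPM used TMM-scaled totals within a tissue, so CPM set across tissues rests on separate scalings. A count of 0 was taken to allow 3 counts. The genes to be named were all members, the other carboxylesterase genes, up to 6 called genes of each list with at least 5 CPM, and the 5 genes nearest to Ces2e. Asns, Nr1i3 and Nr1i2, and the genes named only for a call without halofuginone liver 1, were named after their values were seen. The members and lists were chosen with earlier results of these data known.

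Alternatives were DESeq2 1.42.0, its size factors, library size alone, no filter, at least 5 CPM, a replicate block, limma 3.58.1 on log2(FPKM + 1) and log2(FPKM + 0.1), and each library left out. The edgeR fits were also run on simulated counts without an outlying library, and nothing here rests on that run. Within groups no pair of libraries differed by less than sampling noise allows (chi-square over its degrees of freedom, at least 31.2).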

Additional observations from a re-analysis of the deposited data

Results flagged for a closer look

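Of the members' values, 3 lay far from the rest of their group, and each belonged to halofuginone liver 1. Ces1d was at 440.9 CPM in that library and at most 41.0 CPM in halofuginone livers 2 to 5, a gap of 0.931 of the group's range against a critical value of 0.71. Ces1g was at 94.3 CPM against at most 29.9 CPM (gap 0.771), and Ces3a was at 1609.8 CPM against at most 754 CPM (gap 0.734). Of the 20 groups of 5 livers looked at, 3 held such a library, where chance gives about 1. The 3 values come from 1 library and are not independent of each other.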

How the results depend on the processing

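Over all genes, edgeR called 2850 genes in liver (1292 lower, 1558 higher), and 1275 to 5312 without single libraries. The count moved by over 1.5 times without vehicle liver 2, 4 or 5 (1458, 1770.0 and 1700.0) or halofuginone liver 1, 3, 4 or 5 (5312, 1275, 1798 and 1403). In fat it was 0, and 0 to 1 without single libraries, 1 without the filter and 665 with DESeq2 (212 higher, 453 lower). For fat minus liver it was 141, and 34 to 1053 without single libraries, 685 with DESeq2, 379 by limma on log2(FPKM + 1) and 23 with the replicate block. For vehicle liver against fat it was 10333, and 9840 to 10552 without single libraries. The share called higher moved with scaling, from 54.7% to 76.9% on library size alone in liver and from 48.3% to 14.7% in vehicle liver against fat, where the median of all genes shifted by 0.16 and −1.26.

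In liver, 2 to 9 members were called lower when single libraries were left out, 9 of them without halofuginone liver 1, where 21.6% of all genes were. Limma called 7 and 6 (FPKM + 1 and FPKM + 0.1), where it called 811 and 817 of 10225 genes lower. The replicate block gave 4, adding Ces1d, where 1011 of 12311 genes were called lower. DESeq2 called 3 (Ces2c, Ces2e and Ces3a, with no adjusted p for Ces1d, Ces1e and Ces1g), where it called 1728 of 22322 genes lower. Because this contrast chose the family, nothing is read from these counts. Within a tissue, vehicle and halofuginone libraries of the same number did not deviate together (r from −0.156 to 0.0566 in liver and from −0.570 to 0.111 in fat). Whether liver and fat libraries of the same number did so was not tested. The replicate block gave 1901 calls in liver, 0 in fat and 9442 in vehicle liver against fat. With it the liver calls of Hnf4a (edgeR adjusted p = 0.0642) and of the macrophage marker Gpnmb were lost.

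Ces1d in fat turned sign on library size alone (0.036), with the replicate block (0.12), by limma (0.19 and 0.20) and without single libraries (−0.39 to 0.23, with 0.20 without vehicle 2 or halofuginone 2). Ces1d in vehicle liver against fat turned to −0.97 on library size alone, −0.80 by limma with either pseudocount and −0.085 without vehicle fat 3 (−0.085 to 0.56 without single libraries). The cause was not tested. Of the values of single genes under alternatives, 529 kept direction and side of the threshold, 80 lost and 18 gained a call and 11 reversed. The alternatives for genes other than members were chosen after seeing the data. Members at 15 counts or fewer in fat could not be compared between treatments at this depth.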
